A study of Mus musculus with 6 samples.

Results

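The 10 genes described here are core members of the Notch pathway: the receptors Notch1, Notch2, Notch3 and Notch4, the ligands Dll1, Dll4, Jag1 and Jag2, and the target genes Hes1 and Hey1. They were chosen by symbol, and all 10 were found among the 46959 gene rows of a table of RNA sequencing values (RPKM, reads scaled to gene length and to library size). The cells were sorted from islets of adult mice carrying the Ins1-H2b-mCherry reporter, in which the Ins1 promoter drives a nuclear red label, together with Ucn3-eGFP, a green label under the promoter of urocortin 3. Immature beta cells were sorted as mCherry single positive (2 libraries), mature beta cells as positive for mCherry and eGFP (2 libraries), and double negative islet cells as lacking both colours (2 libraries). All 3 groups came from bitransgenic mice, and all islets were kept overnight at 5.5 mM glucose and dissociated with trypsin before the sort. Each library was made from pooled islets of 10 to 12 mice. The series design speaks of replicate groups of mice, so each p-value measures the spread between these pools. Replicate 1 of each group is labelled male and replicate 2 female, whereas the series design names females only, so sex is not resolved for these libraries.

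Notch receptors sit in the membrane and are activated by Delta-like or Jagged ligands on a neighbouring cell. Ligand binding exposes the receptor to cleavage, first by an ADAM protease and then by gamma-secretase, and the freed intracellular part enters the nucleus and acts with the DNA-binding protein Rbpj to switch on Hes and Hey genes, which encode repressors. In the developing pancreas Notch signalling through Hes1 holds progenitor cells back from endocrine differentiation by repressing Neurog3, and in blood vessels Notch1, Notch4, Dll4, Jag1 and Hey1 take part in sprouting and arterial identity.

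The RPKM steps of low genes corresponded to between 2393841 and 3448926 reads in the immature libraries, against 22063880 to 26824380 reads in the mature and double negative libraries, so 1 read weighs most in the immature libraries. Notch2, Notch3, Notch4, Dll4, Jag1 and Hey1 nonetheless had fewer reads in both mature libraries than in either immature one, and for these 6 genes the relative counting error is largest in the mature values, the denominators of their ratios. The sorted groups were checked against marker lists. Of 8 beta cell markers, 8 were lower in immature than in mature libraries (6 after quantile normalization, where Iapp turned sign) and 8 were higher than in double negative libraries. The immature libraries also held markers of other cells. The summed RPKM of 12 endothelial markers was 873.4 and 821.8 in immature libraries, 5.76 and 4.18 in mature and 204.1 and 215.1 in double negative libraries. All 12 were higher in immature than in mature and in double negative libraries by limma, with the tight junction gene Cldn5 listed at 0 in both mature libraries. Summed RPKM of 10 immune markers was 1748 and 1826 in immature libraries, 61.5 and 62.0 in mature and 48.9 and 51.2 in double negative libraries, with Ptprc and Tyrobp each listed at 0 in 1 mature library. Cd68 alone gave 42.2 and 42.3 RPKM in mature libraries, against 10.4 and 9.24 RPKM in double negative ones. Of the 10 immune markers, 1 (Cd68) was higher and 6 were lower in mature than in double negative cells. Of all tested genes 23.1% were higher and 31.2% lower. Summed RPKM of 10 mesenchymal markers was 146.5 and 104.2 in immature libraries, 0.45 and 0.503 in mature and 23.1 and 28.6 in double negative libraries. The libraries are bulk samples, in which fewer cells of a type and less RNA per cell cannot be told apart. Markers of other islet cells were also present: all 6 alpha, 3 delta and 2 PP cell markers were higher in immature than in mature cells and lower in immature than in double negative cells. Among all tested genes, 45.9% were higher and 10.6% lower in immature than in double negative cells. These shares also stand beside the beta and endothelial counts above. Acinar marker sums reached 8756 and 27500 RPKM in immature libraries, 175.3 and 121.1 RPKM in mature and 250.4 and 2091 RPKM in double negative libraries. Ductal sums were 457.5 and 476.5 RPKM in immature libraries, 821.3 and 895.1 RPKM in mature and 741.0 and 765.9 RPKM in double negative libraries. Spp1 alone gave 288.2 and 285.5, 748.1 and 821.4, and 619.7 and 624.4 RPKM of these sums. Of 7 tested ductal markers, 5 were higher and 2 (Spp1 and Krt7) lower in immature than in mature cells. Of all tested genes 49.8% were higher and 15.5% lower. After median-ratio rescaling 4 of the 7 were higher and 2 lower. The names immature and mature are therefore those of the sort gates.

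**Figure D1:**
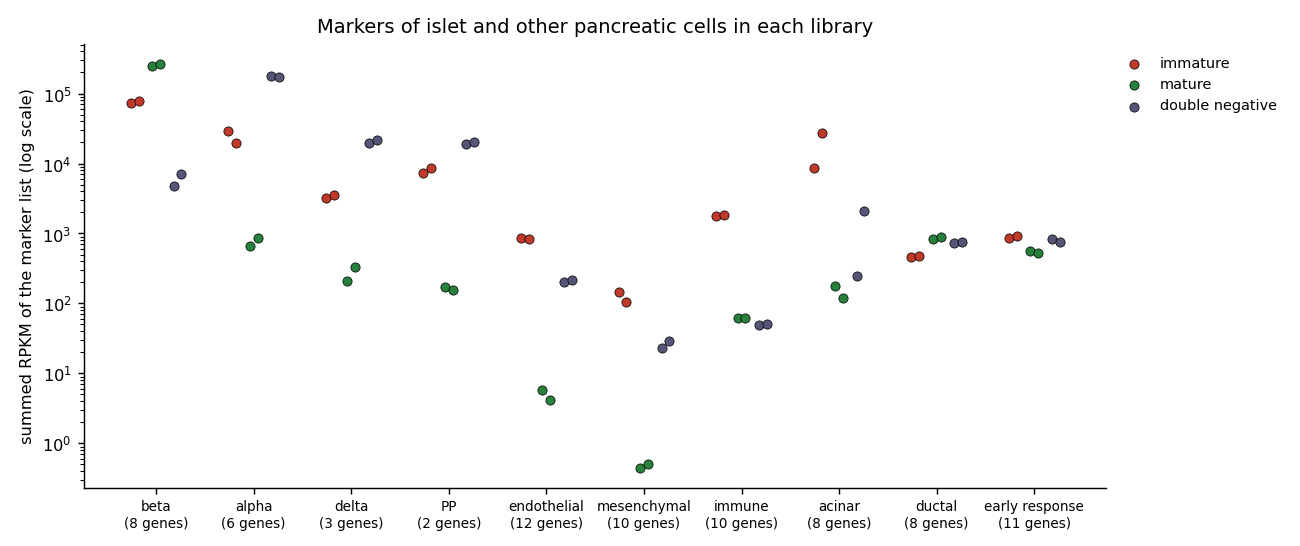
Summed RPKM (log scale) of each marker list, 1 point per library, for immature, mature and double negative cells. Endothelial markers sum to 873.4 and 821.8 RPKM in immature libraries, 5.76 and 4.18 RPKM in mature and 204.1 and 215.1 RPKM in double negative libraries.

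All 4 receptor genes were highest in immature libraries, intermediate in double negative and lowest in mature libraries, and no group overlapped another. How many of all tested genes had groups apart in this way was not counted. Separation may be common, as 65.3% of all tested genes passed for immature against mature cells. The share was 54.3% for mature and 56.6% for immature against double negative cells. Notch1, a receptor active in many tissues (ENSMUSG00000026923.15, chromosome 2, 26457903 to 26516663, minus strand, GRCm38), stood at 12.2 and 13.7 RPKM in immature libraries, 1.66 and 1.66 RPKM in mature and 4.69 and 5.06 RPKM in double negative libraries. It lay 2.39 (SE 0.09) higher in immature than in mature cells on the scale of log2(RPKM + 1), with a limma adjusted p = 7.9e-06, and 1.24 higher than in double negative cells (limma adjusted p = 0.000151). Notch1 was the only receptor that reached 1 RPKM in the mature libraries, where 560 and 632 reads support it. Of its 14232 exonic bases, 1068 are shared with 0610009E02Rik on the opposite strand, which measured 1.62 and 1.61 RPKM in immature libraries, 1.78 and 1.3 RPKM in mature ones, and 1.26 and 0.903 RPKM in double negative ones, and without strand those reads cannot be told apart. Notch2, Notch3 and Dll4 share 5.02%, 6.03% and 5.56% of their exonic bases with other annotated genes. The mature group lay 1.14 below the double negative group (limma adjusted p = 0.000156).

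Notch4, a receptor known mainly from endothelial cells (ENSMUSG00000015468.14, chromosome 17, 34564268 to 34588503, plus strand), had the largest ratio between group means among the 10 genes. It measured 15.2 and 15.5 RPKM in immature libraries, 0.225 and 0.153 RPKM in mature and 4.18 and 3.71 RPKM in double negative libraries. The immature mean was 81.3-fold the mature mean and 3.89-fold the double negative mean. The limma adjusted p was 1.98e-06 and 5.61e-05 for these comparisons, with log2 differences of 3.78 (SE 0.09) and 1.73 (SE 0.09). In the mature libraries 43 and 33 reads were left, and 95% Poisson intervals on them run from 0.163 to 0.303 RPKM and from 0.105 to 0.214 RPKM.

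Notch2 (ENSMUSG00000027878.11, chromosome 3, 98013527 to 98150361, plus strand), whose protein is close to Notch1 in layout, measured 6.24 and 5.84 RPKM in immature libraries, 0.36 and 0.353 RPKM in mature and 1.87 and 2.08 RPKM in double negative libraries. Its log2 difference between immature and mature cells was 2.38 (SE 0.09), almost that of Notch1, although the ratio of mean RPKM was 16.9 for Notch2 and 7.79 for Notch1. The added 1 in log2(RPKM + 1) compresses the change of genes below about 1 RPKM, so the ratios and the log2 differences rank these genes differently. With a pseudocount of 0.1 the difference was 3.75 for Notch2, 2.89 for Notch1, 5.75 for Notch4 and 3.09 for Notch3.

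Notch3, the receptor of vascular smooth muscle and pericytes (ENSMUSG00000038146.8, chromosome 17, 32120820 to 32166852, minus strand), was the lowest receptor. It measured 1.04 and 1.19 RPKM in immature libraries, 0.0577 and 0.0278 RPKM in mature and 0.406 and 0.388 RPKM in double negative libraries, from 20 and 33, 11 and 6, and 72 and 71 reads. Notch3 met the minimum of 1 RPKM in 2 libraries through the immature group alone, so a difference in its favour was built into its being tested. It passed in all 3 comparisons (1.02, SE 0.10, for immature against mature and 0.60 for immature against double negative cells). The difference of -0.42 between mature and double negative cells (limma adjusted p = 0.0161) lost its call when any library of these groups was left out, with log2 differences of -0.44 and -0.40 without mature replicates 1 and 2 and -0.41 and -0.43 without double negative replicates 1 and 2. After quantile normalization Notch3 differed by 0.06 between immature and mature cells and did not pass. Its direction against double negative cells also flipped there, to -0.01.

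Summed over the 4 receptors, the RPKM values were 34.7 and 36.2 in immature libraries, 2.3 and 2.19 in mature and 11.2 and 11.2 in double negative libraries. The make-up of that sum differed as well. Notch1 held 35.1% and 37.8% of it in immature libraries, 72.1% and 75.6% in mature and 42.1% and 45.0% in double negative libraries. Notch4 held 44.0% and 42.8% in immature libraries, 9.77% and 6.97% in mature and 37.5% and 33.0% in double negative libraries. These shares did not overlap between the groups, and Notch2 held between 15.6% and 18.5% in all 6 libraries.

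**Figure D2:**
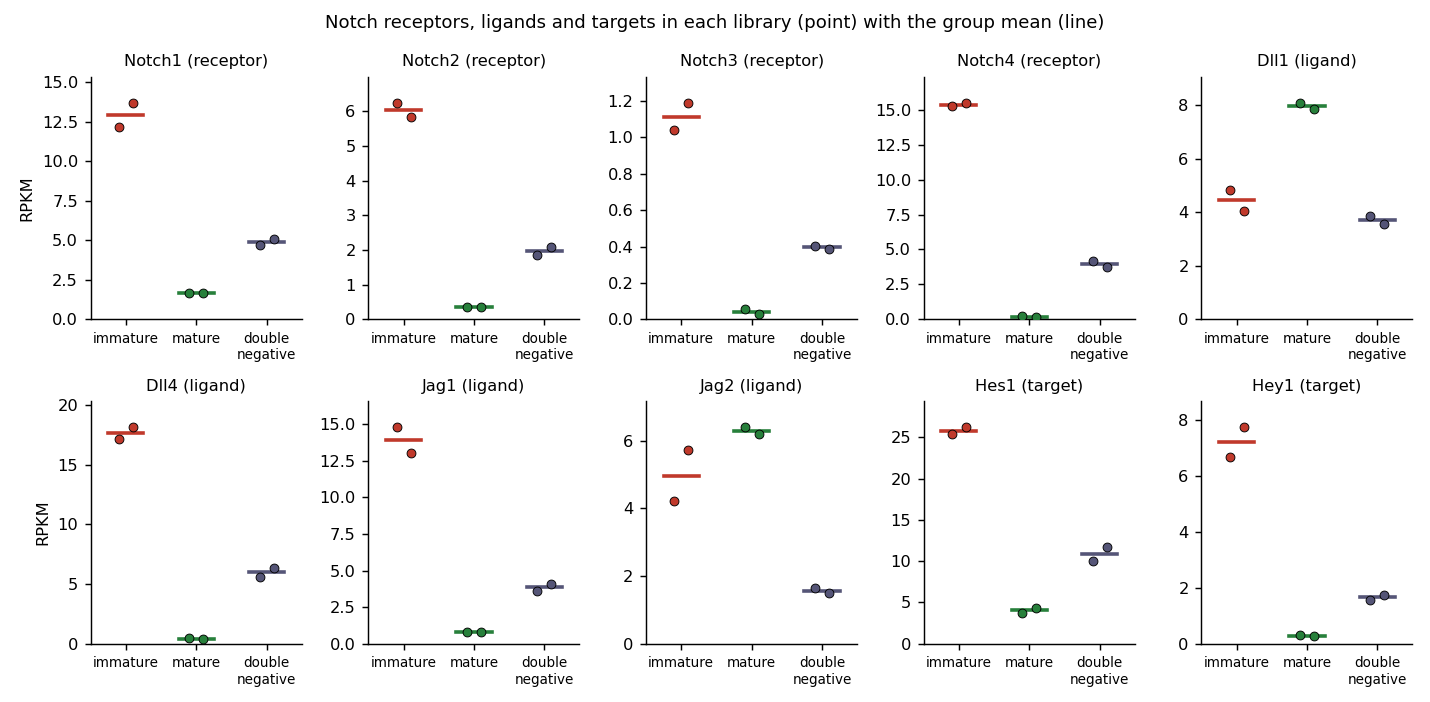
RPKM of each of the 10 genes (vertical axes start at 0) in immature libraries, mature and double negative libraries, with 1 point per library and a line at the mean of 2. Notch4 sits at 15.2 and 15.5 RPKM in immature libraries, against 0.225 and 0.153 RPKM in mature libraries, whereas Dll1 and Jag2 have their highest mean in mature cells.

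The ligands divided into 2 pairs. Dll4 and Jag1 followed the receptors, with immature cells highest and mature cells lowest. Dll1 and Jag2 had their highest mean in mature cells. For orientation, the 250 bases before the RefSeq start sites of these ligands (GRCm38.p6, each 5′ to 3′ on the strand of its gene) are printed with E-boxes, the letters CANNTG bound by many helix-loop-helix factors, in capitals. Dll1 has 2 annotated starts (chr17:15375824-15376073 and chr17:15376933-15377182, minus strand), Jag2 lies at chr12:112929496-112929745 (minus strand), Dll4 at chr2:119325534-119325783 (plus strand) and Jag1 at chr2:137116521-137116770 (minus strand).
Dll1, downstream start: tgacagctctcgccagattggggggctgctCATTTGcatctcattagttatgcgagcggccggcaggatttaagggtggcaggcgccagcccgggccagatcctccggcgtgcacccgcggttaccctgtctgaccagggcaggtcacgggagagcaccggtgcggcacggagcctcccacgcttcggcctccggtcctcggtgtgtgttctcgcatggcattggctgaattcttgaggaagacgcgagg
Dll1, upstream start: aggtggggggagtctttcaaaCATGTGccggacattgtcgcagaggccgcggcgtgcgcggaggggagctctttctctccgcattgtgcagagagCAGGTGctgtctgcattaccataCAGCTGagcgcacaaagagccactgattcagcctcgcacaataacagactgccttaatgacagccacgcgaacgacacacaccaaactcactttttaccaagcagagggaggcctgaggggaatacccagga
Jag2: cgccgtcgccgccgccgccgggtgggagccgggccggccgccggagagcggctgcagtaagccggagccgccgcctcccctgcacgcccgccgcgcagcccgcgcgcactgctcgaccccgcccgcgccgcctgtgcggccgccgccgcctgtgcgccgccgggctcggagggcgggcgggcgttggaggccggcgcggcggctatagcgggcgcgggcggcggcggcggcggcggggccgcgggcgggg
Dll4: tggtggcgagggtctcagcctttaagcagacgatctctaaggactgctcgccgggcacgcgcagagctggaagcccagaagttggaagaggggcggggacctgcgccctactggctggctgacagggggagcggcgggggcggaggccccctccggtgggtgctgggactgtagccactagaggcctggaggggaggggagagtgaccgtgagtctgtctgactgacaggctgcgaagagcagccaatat
Jag1: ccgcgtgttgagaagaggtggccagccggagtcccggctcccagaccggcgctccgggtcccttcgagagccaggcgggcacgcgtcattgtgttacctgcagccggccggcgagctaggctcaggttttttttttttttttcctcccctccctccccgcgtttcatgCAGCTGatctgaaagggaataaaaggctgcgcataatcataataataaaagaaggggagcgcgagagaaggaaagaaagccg

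The Dll1 windows hold 1 and 3 E-boxes, Jag1 holds 1, and Jag2 and Dll4 hold 0. An E-box was found in 66.2% of all 32544 RefSeq windows of this length, so its presence does not set the Dll1 windows apart. The core letters TGGGAA of an Rbpj site, searched on both strands, were in 0 of the 9 windows available for 8 of the 10 genes, against 21.6% of all windows. TGGGAA contains GGAA, the core letters of ETS sites, and a missing match says only that the letters are not in the window. The Jag2 window is 87.2% G and C, against 64.0% and 56.0% in the Dll1 windows, 65.6% in Dll4, 57.2% in Jag1 and a median of 52.4% over all windows. Dll1 and Jag2, which shared their order of group means, thus differed widely in base composition.

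Dll1, a Delta-like ligand that acts in lateral inhibition among endocrine progenitors (ENSMUSG00000014773.13, chromosome 17, 15367354 to 15376872, minus strand), stood at 4.85 and 4.05 RPKM in immature libraries, 8.08 and 7.85 RPKM in mature and 3.88 and 3.58 RPKM in double negative libraries. The mature libraries were above the other 4. Dll1 fell by 0.72 (SE 0.10) in immature against mature cells (limma adjusted p = 0.00118) and was 0.92 higher in mature than in double negative cells (limma adjusted p = 0.000556). Immature and double negative cells differed by 0.20 (95% interval -0.04 to 0.44, limma adjusted p = 0.124), and the difference passed without immature replicate 2 (0.31, limma adjusted p = 0.0188). It was -0.23 after quantile normalization and -0.000521 after median-ratio rescaling. The immature values rest on 49 and 59 reads. Of the 4219 exonic bases of Dll1, 867 are shared with A930024N18Rik on the opposite strand, which measured 0.412 to 0.842 RPKM in all libraries, and reads in that stretch cannot be told apart without strand.

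Jag2 (ENSMUSG00000002799.6, chromosome 12, 112907819 to 112929776, minus strand), a Jagged ligand, measured 4.22 and 5.72 RPKM in immature libraries, 6.4 and 6.2 RPKM in mature and 1.64 and 1.5 RPKM in double negative libraries. The groups did not overlap, but the lower mature library lay near the higher immature one. The difference of -0.30 between immature and mature cells did not pass (95% interval -0.63 to 0.03, limma adjusted p = 0.0922). It passed at -0.57 after median-ratio rescaling, at -0.83 after quantile normalization and at -0.48 without immature replicate 2. Against double negative cells Jag2 was 1.21 (SE 0.13) higher in immature and 1.51 (SE 0.13) higher in mature cells, with limma adjusted p = 0.000768 and 0.000278.

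Dll4, the Delta-like ligand of sprouting and arterial endothelium (ENSMUSG00000027314.6, chromosome 2, 119325784 to 119335962, plus strand), measured 17.1 and 18.1 RPKM in immature libraries, 0.449 and 0.377 RPKM in mature and 5.61 and 6.38 RPKM in double negative libraries. It was 3.72 (SE 0.09) higher in immature than in mature cells (limma adjusted p = 2.09e-06), a 42.7-fold ratio of mean RPKM. Jag1, a Jagged ligand of ducts and vessels (ENSMUSG00000027276.7, chromosome 2, 137081456 to 137116644, minus strand), measured 14.8 and 13.0 RPKM in immature libraries, 0.774 and 0.787 RPKM in mature and 3.61 and 4.08 RPKM in double negative libraries. Jag1 was 3.06 (SE 0.10) higher in immature than in mature cells (limma adjusted p = 4.96e-06). Its immature mean was 17.8-fold the mature and 3.62-fold the double negative mean. For both genes all 3 pairs of groups differed past the threshold.

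The sum of the 4 ligands behaved unlike that of the receptors. It was 41.0 and 40.9 RPKM in immature libraries, 15.7 and 15.2 RPKM in mature and 14.7 and 15.5 RPKM in double negative libraries, so mature and double negative libraries overlapped. What differed was which ligands supplied it. Dll1 and Jag2 together held 22.1% and 23.9% of ligand RPKM in immature libraries, 92.2% and 92.3% in mature libraries, and 37.5% and 32.7% in double negative libraries. Dll4 and Jag1 held 77.9% and 76.1% in immature, 7.79% and 7.66% in mature and 62.5% and 67.3% in double negative libraries. With 2 libraries per group, no permutation test of a share can reach the threshold, and these shares are descriptions.

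**Figure D3:**
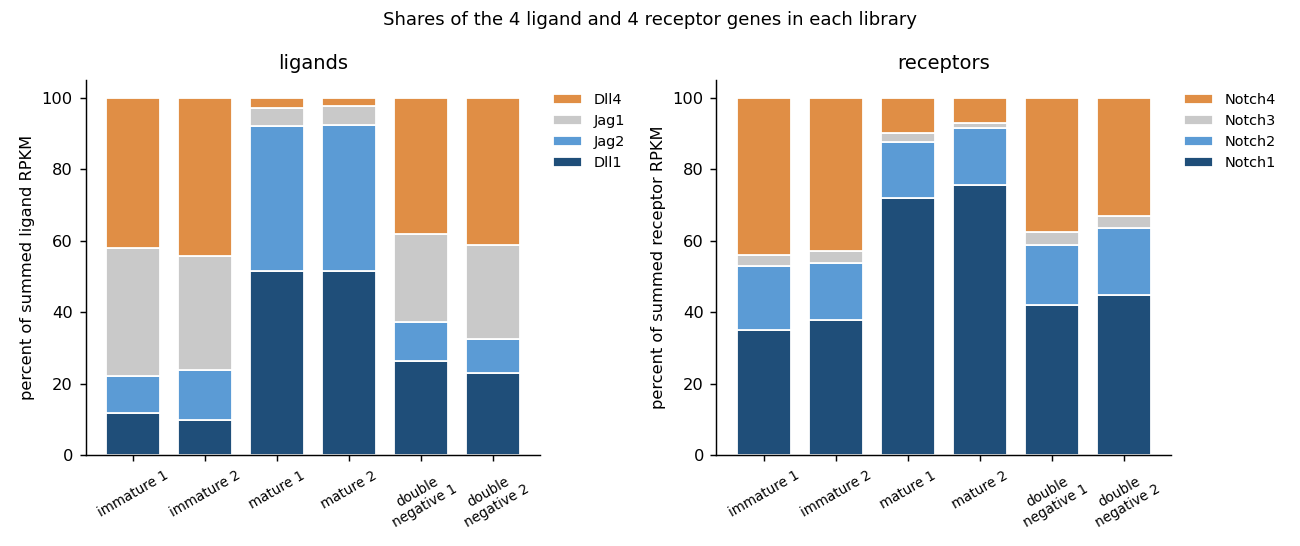
Percent of summed ligand RPKM (left) and summed receptor RPKM (right) held by each gene in each immature, mature and double negative library. Dll1 and Jag2 fill 92.2% and 92.3% of the ligand bars in mature libraries, against 37.5% and 32.7% in double negative libraries.

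The target genes followed the receptors. Hes1, a repressor that is a direct Notch target in many tissues (ENSMUSG00000022528.8, chromosome 16, 30064384 to 30067796, plus strand), was the highest of the 10 genes in immature and double negative libraries. It measured 25.4 and 26.2 RPKM in immature libraries, 3.73 and 4.36 RPKM in mature and 9.97 and 11.7 RPKM in double negative libraries. Hes1 was 2.41 (SE 0.10) higher in immature than in mature cells (limma adjusted p = 1.16e-05), and no group overlapped another. Against double negative cells it was 1.19 (SE 0.10) higher in immature and 1.23 lower in mature cells, with limma adjusted p = 0.000279 and 0.000196. In mature cells Hes1 ranked below Dll1 and Jag2 per length, yet it kept 180 and 238 reads there.

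Hey1, a related repressor prominent in vessels (ENSMUSG00000040289.8, chromosome 3, 8663359 to 8667256, minus strand), measured 6.65 and 7.73 RPKM in immature libraries, 0.31 and 0.274 RPKM in mature and 1.55 and 1.75 RPKM in double negative libraries. Hey1 was 2.66 (SE 0.11) higher in immature than in mature cells (limma adjusted p = 1.06e-05), and its groups did not overlap either. The immature mean was 24.6-fold the mature mean for Hey1, against 6.39-fold for Hes1. It was 4.35-fold the double negative mean for Hey1 and 2.39-fold for Hes1. The mature Hey1 values rest on 24 reads in each library. Among early response genes, which dissociation can induce, 9 of 11 were higher in immature than in mature libraries, where 49.8% of all tested genes were higher, with summed RPKM of 871.1 and 930.5 in immature libraries, 555.8 and 525.1 in mature and 842.3 and 757.9 in double negative libraries. After median-ratio rescaling 7 of the 11 were higher and 1 lower, beside 34.1% and 30.8% of all tested genes. After quantile normalization 10 were higher and 0 lower, beside 23.4% and 40.1% of all tested genes. None of the 11 was at 0, and the part of dissociation in the Hes1 values was not tested.

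Across the comparisons, the 10 genes were set beside all 13367 tested genes. For immature against mature cells, 8 of the 10 were higher and 1 lower, where 65.3% of all tested genes passed, 49.8% higher and 15.5% lower. The median log2 difference was 2.40 over the 10 genes and 0.29 over all tested genes. With a pass rate this high in the whole table, the counts say less than the sizes. Without Notch3 the count was 7 higher and 1 lower of 9. The median of all genes lay at 0.016 after median-ratio rescaling and at -0.171 after quantile normalization, and 7 genes were higher and 2 (Dll1 and Jag2) lower under each. Notch3 was not tested after median-ratio rescaling, where 9 of the 10 genes were tested, and did not pass after quantile normalization. For mature against double negative cells, 2 were higher and 8 lower, where 54.3% of all tested genes passed, 23.1% higher and 31.2% lower, with medians of -1.14 and -0.08. For immature against double negative cells, 9 were higher and 0 lower, where 56.6% passed, 45.9% higher and 10.6% lower, with medians of 1.24 and 0.24. These comparisons share libraries and are not independent of each other. Endothelial markers shared their order of groups with 8 of the 10 genes, all but Dll1 and Jag2. The order was not particular to endothelial markers. Summed RPKM of mesenchymal and of acinar markers followed it too, as did most single immune markers. The share of all tested genes with this order was not counted. The immature over double negative ratio of mean RPKM ranged from 2.86 to 4.49 over endothelial markers, with a median of 3.94. It ranged from 2.39 to 4.35 over the 8 genes. Jag2 had 3.17 and Dll1 had 1.19, but this ratio leaves out the mature libraries. Mesenchymal markers ranged from 0.933 to 22.1, with a median of 4.53. Immune markers ranged from 8.42 to 160, with a median of 72.4. The part of endothelial, mesenchymal, immune or acinar cells in the values of the 10 genes was not tested. Dll1 and Jag2 had their highest means in the mature libraries. There the sums of endothelial, mesenchymal, acinar, alpha, delta and PP markers were lowest, and those of beta and ductal markers highest. The cell source of Dll1 and Jag2 was not tested.

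**Figure D4:**
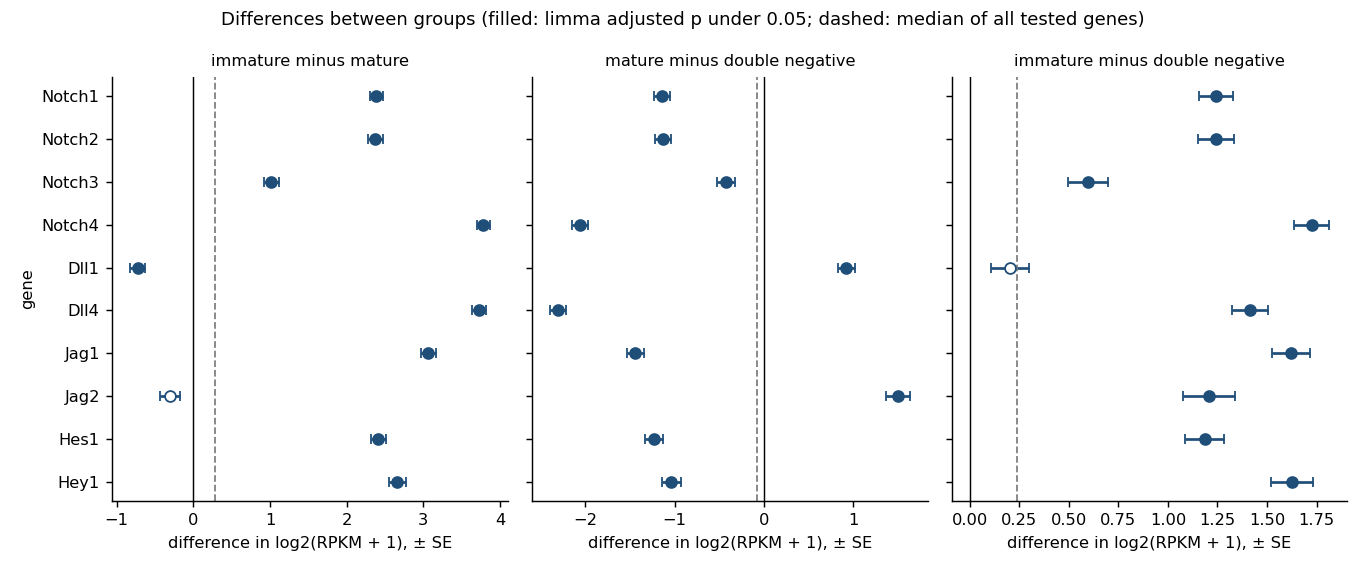
Differences in log2(RPKM + 1) between groups for each gene, with standard errors from limma on 2 libraries per group, filled where the adjusted p was under 0.05 and with a dashed line at the median of all tested genes (0.29, -0.08 and 0.24 from left to right). Dll1 and Jag2 lie on the other side of 0 from the other 8 genes in the left and middle panels.

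The wider pathway was described with 45 further genes listed by role, of which 41 were tested. Of these, 27 were higher and 2 lower in immature than in mature cells, with a median log2 difference of 0.45 against 0.29 for all tested genes, of which 49.8% were higher and 15.5% lower. Lfng, Aph1c, Neurl1b, Hey2, Heyl and Nrarp reached 1 RPKM in the immature libraries alone, so their being tested already required a high immature level. Without these 6 genes, 21 of 35 were higher and 2 lower. The split of the 41 genes depended on scaling. It was 21 higher and 7 lower after median-ratio rescaling, where 34.1% of all tested genes were higher and 30.8% lower, and 17 higher and 13 lower after quantile normalization, where 23.4% were higher and 40.1% lower. For mature against double negative cells 5 were higher and 18 lower, against 23.1% and 31.2% of all tested genes. For immature against double negative cells 24 were higher and 2 lower, against 45.9% and 10.6% of all tested genes. After quantile normalization that split was 6 higher and 9 lower, against 21.4% and 32.5% of all tested genes.

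Fringe genes, which add sugars to Notch receptors and so tune their choice of ligand, belong to a role of 5 genes. Of these, 4 were higher in immature than in mature cells, beside 49.8% of all tested genes. After median-ratio rescaling 2 of the 5 were higher, near the 34.1% of all tested genes. Mfng measured 7.21 and 9.09 RPKM in immature libraries, against 0.104 and 0.0788 RPKM in mature libraries, and Lfng 4.0 and 4.75 RPKM in immature libraries, against 0.0505 and 0.0893 RPKM in mature libraries. The differences, 3.06 and 2.33, passed under each scaling, although Lfng is among the genes tested only through their immature level. Rfng, the other fringe gene, averaged 6.42 RPKM in immature cells, against 5.81 RPKM in mature cells, and did not pass (0.13), but was lower past the threshold after quantile normalization (-0.36). Among receptor proteases and gamma-secretase parts, 4 of 10 were higher, a share below the 49.8% of all tested genes. The split was 3 higher and 3 lower after median-ratio rescaling, and 3 higher and 5 lower after quantile normalization. The role was led by the convertase gene Furin (1.05) and the sheddase gene Adam17 (1.01). Aph1c, at 0.87, turned sign under quantile normalization, and its reads may be shared with its close copy Aph1b.

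Of 4 genes for ligand endocytosis, 2 were higher and 1 lower in immature than in mature cells, near the 49.8% and 15.5% of all tested genes. Mib2, a ubiquitin ligase that promotes ligand endocytosis, measured 13.0 and 15.2 RPKM in immature libraries, 24.7 and 25.1 RPKM in mature and 10.6 and 10.3 RPKM in double negative libraries, and was 0.78 lower in immature than in mature cells. Mib1 was 0.45 higher and Neurl1b, another ligase gene, 1.36 higher, against 0.17 and 0.43 after quantile normalization. Among other ligands, Dner, a Delta-related membrane protein of neurons, fell by 1.38 (SE 0.16) in immature against mature cells, with 2.62 and 4.12 RPKM in immature libraries, 10.2 and 10.1 RPKM in mature and 3.13 and 3.15 RPKM in double negative libraries. Mib2 and Dner thus shared with Dll1 and Jag2 a mature group above the other 2 groups in all libraries. Hes6 and some other genes of the wider pathway had this order too, Hes6 with 15.9 and 17.2 RPKM in mature libraries and at most 15.1 RPKM elsewhere. Dlk1, a Delta-like protein without the receptor-activating domain, was 1.69 higher in immature than in mature cells.

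In the nucleus, 5 of 8 genes of the Rbpj complex were higher in immature than in mature cells, beside 49.8% of all tested genes. After quantile normalization 4 were higher and 2 lower. The coactivator gene Maml2 led with 3.47 and 2.55 RPKM in immature libraries, against 0.495 and 0.474 RPKM in mature libraries, and Maml1, another coactivator gene, was 0.79 higher. Rbpj itself, whose reads may be shared with pseudogene copies, averaged 1.69 RPKM in immature cells, against 0.681 RPKM in mature cells, a difference that turned sign under quantile normalization. All 8 turnover and trafficking genes were higher, beside 49.8% of all tested genes, and 5 of the 8 after median-ratio rescaling, beside 34.1%. Under quantile normalization 4 of them turned sign (Fbxw7, Dtx1, Dtx2 and Numbl). Dtx4, a Deltex ubiquitin ligase, was the exception in size, at 9.78 and 11.6 RPKM in immature libraries, 0.366 and 0.349 RPKM in mature and 1.35 and 1.62 RPKM in double negative libraries. Dtx3 differed by 0.60. Of the other targets, Hey2, Nrarp and Heyl, all tested only through their immature level, differed by 1.51, 1.49 and 1.26 and averaged between 1.42 and 2.09 RPKM in immature cells. Hes6, a relative of Hes1 that opposes it, averaged 13.5 RPKM in immature libraries, 16.5 RPKM in mature ones, and 11.8 RPKM in double negative ones. Its difference of -0.28 between immature and mature cells did not pass, but passed at -0.58 after median-ratio rescaling and at -0.54 after quantile normalization. Most of the endothelial, immune, mesenchymal and acinar markers given above were, like Mfng, Lfng and Dtx4, higher in immature cells than in both other groups. Only the direction was compared, and the part of these cells was not tested.

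**Figure D5:**
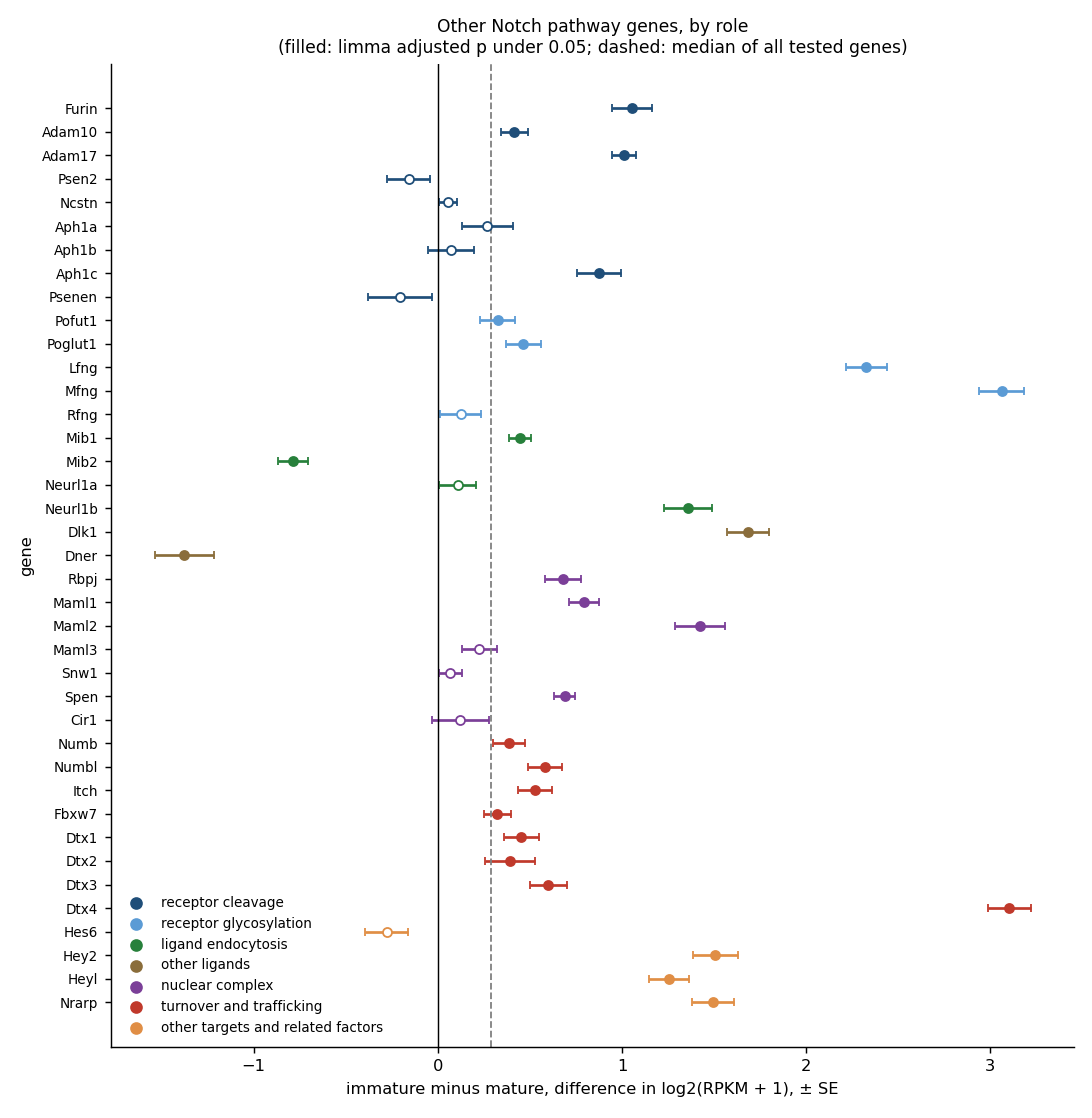
Immature minus mature difference in log2(RPKM + 1), with standard errors, for other tested Notch pathway genes coloured by role, filled where the adjusted p was under 0.05 and with a dashed line at the median of all tested genes (0.29). Dtx4 (3.10) and Mfng (3.06) lie farthest right, and Dner (-1.38) and Mib2 (-0.78) are the filled points left of 0.

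Genes with the most similar profiles were sought by the Euclidean distance between log2(RPKM + 1) values over the 6 libraries, each gene centred on its own mean. The nearest to Notch4 were Itgb3, Col15a1 and Flt4, at distances of 0.159 to 0.27. The nearest to Dll4 were Cdc42ep1, Nrp2 and Timp3, and those to Jag1 were F2r, Tmem173 and Fads3. For Hes1 they were Notch1 (0.194), Notch2 (0.199) and Bmpr2, so 2 of the 3 nearest profiles to the target were receptors. Hey1 lay nearest to Sipa1, Fes and Smpdl3a, Notch1 to Ttyh3, Msrb3 and Cd300lg, Notch2 to Bcl6b, Bmpr2 and Tspan18, and Notch3 to Tcaf2, Iffo1 and Mis18a. Dll1 lay nearest to Emd, Fam13c and Slc39a6, and Jag2 to Galnt9, Ostm1 and Ggt7. The libraries of a group share depth and sort, so closeness here describes only the 3 group levels.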

How the data were processed

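The authors deposited 1 table of RPKM values with a column per library, and each column was matched to its library by title. Per the submitters' processing notes, STAR 2.5, featureCounts, edgeR 3.14.0 and build GRCm38.p4 were used; for the annotation release and strand setting, the sources used here give nothing. RPKM divides by the library total, so genes with very many reads take reads from all other genes, to an unequal degree. The share of all RPKM taken by Ins2 was 12.0% and 12.4% in the immature pair and 33.2% and 34.8% in the mature pair. It was 0.263% and 0.563% in the double negative pair. There the glucagon gene Gcg stood at 172600 and 166600 RPKM, of RPKM sums of 428300 and 428400, against 532.0 and 722.8 RPKM in the mature pair. Reads were recovered from RPKM steps with GENCODE M21 exonic lengths (78.2% of expressed genes whole in all 6 libraries within 0.02 reads); Notch3 and Jag2 needed another length. Intervals cover counting error only.

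Tested genes reached 1 RPKM or more in at least 2 libraries. Limma 3.58.1 (R 4.3.3) was run on log2(RPKM + 1), fitting 3 group means with an intensity trend and 3 residual degrees of freedom, with Benjamini-Hochberg adjustment over all 13367 genes at 0.05. The spread was unequal: the SD of replicate log2 differences was 0.393 for the immature pair, 0.132 for the mature pair and 0.222 for the double negative pair. The procedure was also run on simulated data in which all libraries had the same spread beyond counting error. The simulation therefore does not cover the unequal spread seen here. The series design has the 3 fractions sorted from the same islets, and titles and sex labels tie each replicate number across the groups, so the number was taken to pair the libraries. Replicate differences nevertheless correlated at -0.00933 (immature with mature), -0.112 (mature with double negative) and 0.14 (immature with double negative). The 10 genes and all lists were chosen with earlier results of these data known. From each role of the wider pathway, up to 3 genes with the largest immature against mature difference past the threshold were to be named; Poglut1 (0.46, no longer past the threshold after either rescaling) and Numbl (0.58) complete that rule, and Neurl1a, Rfng, Aph1b, Rbpj, Hes6, Fbxw7, Dtx1 and Dtx2 were named after their values were seen. Some genes of the wider pathway are counted but not reported here by name. Promoter windows are RefSeq sequences; Hes1 and Hey1 were without one. Alternatives were another pseudocount, other filters, no trend, fewer groups, other scalings, a replicate block, voom on recovered reads and leaving out each library.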

Additional observations from a re-analysis of the deposited data

How the results depend on the processing

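Of 438 alternative values for the 10 genes in 3 comparisons, 425 kept direction and side of the threshold, 6 lost and 4 gained a call and 3 changed sign. Other filters, no trend, fewer groups, the replicate block and leaving out a library outside the comparison cannot change a log2 difference. Direction under those settings was fixed in advance, so 425 overstates how far direction was tested. The sign changes were Notch3 between immature and double negative cells after quantile normalization (-0.00663) and Dll1 in that comparison after median-ratio rescaling (-0.000521) and quantile normalization (-0.232). The cause was not tested. The number of the 10 genes called was 9, 10 and 9 (immature against mature, mature against double negative, immature against double negative) and ranged from 9 to 10 without any 1 library. Voom, which covered 9033 genes and 8 of the 10, called 8, 8 and 7 of them and 5656, 6264 and 4849 genes in all; fewer genes were tested there. All tested genes called were 8728, 7256 and 7563, and leaving out 1 library gave 6335 to 9810, 4767 (without mature replicate 2) to 8982, and 5060 to 8848. Higher genes made up 76.2%, 42.6% and 81.2% of calls, against 52.5%, 48.0% and 56.3% after median-ratio rescaling and 36.8%, 52.4% and 39.7% after quantile normalization, while the median of all genes between immature and mature cells was 0.285, 0.016 and -0.171 under these scalings. A replicate block for the pairing by number gave 8407, 6803 and 7073 called genes and changed no call among the 10 genes. With the mature numbers crossed, an alternative chosen after seeing the data, mature against double negative cells gave 6792. Depth limits Notch3 and Hey1 most.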

Other observations

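Among the 13367 tested genes ranked by mean RPKM, Hes1 stood above 85.7% in immature libraries, 43.9% in mature and 69.1% in double negative cells. Dll1 stood above 32.3% in immature libraries, 61.3% in mature and 37.5% in double negative cells, and Jag2 above 35.8%, 54.8% and 19.1%. Other Notch genes were close to absent in every group and were not tested: Dll3 averaged 0.0509 RPKM in immature libraries, 0.0074 RPKM in mature ones, and 0.0157 RPKM in double negative ones, Hes7 averaged 0.196, 0.121 and 0.0494 RPKM, Hes5 was listed at 0 in immature and double negative cells, and Dlk2 was listed at 0 in immature cells. Neurl1a, a ubiquitin ligase gene, was highest in double negative cells, at 5.49 and 6.11 RPKM in immature libraries, 5.65 and 4.99 RPKM in mature and 18.4 and 15.9 RPKM in double negative libraries.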
